A study of Mus musculus with 28 samples.

Results

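The fibroblast growth factor (FGF) receptors and the FGFs of skeletal muscle were followed as 10 genes out of the 55359 genes listed in both count tables. They were the receptor genes *Fgfr1*, *Fgfr2*, *Fgfr3*, *Fgfr4* and *Fgfrl1*, the ligand genes *Fgf1*, *Fgf2*, *Fgf6* and *Fgf21*, and the co-receptor gene *Klb*. The set was chosen by name around *Fgfr4*, which was selected on its measured fall in placebo *Dnm2* S619L/+ against placebo WT muscle. This comparison is therefore described without a test. RNA-seq counts came from the tibialis anterior (TA) muscle of 28 mice of the C57BL/6N strain aged 8 weeks, in 7 groups of 4 mice. The *Dnm2* cohort held WT and heterozygous *Dnm2* S619L/+ knock-in mice, each on placebo or on tamoxifen given with the diet. The *Bin1* cohort held WT mice on placebo and *Bin1* mck-/- mice on placebo or tamoxifen, in which the muscle creatine kinase promoter drives deletion of *Bin1* in muscle. The RNA input was 300 ng in the *Dnm2* and 350 ng in the *Bin1* cohort, with fragmentation for 2 and 8 min, so that model and library protocol cannot be told apart between cohorts. All tests were made within a cohort.

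FGFs bind receptor tyrosine kinases at the cell surface together with heparan sulfate, and the receptors signal through adaptor proteins to RAS, ERK and transcription factors of the ETS family. FGFRL1 binds FGFs and lacks the tyrosine kinase domain. In muscle, FGFR1 and FGFR4 are known from satellite cells, the muscle stem cells, and FGF6 is a ligand with restricted expression in skeletal muscle. FGFR2 and FGFR3 are known for their roles in the growth of bone and cartilage. FGF21 circulates as a hormone and acts through FGFR1 with β-Klotho, the product of *Klb*.

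The reads counted on genes ranged from 15586333 to 109710886 per mouse in the *Dnm2* cohort (median 28832003) and from 24671835 to 35136327 in the *Bin1* cohort (median 30657896). *Bin1* (ENSMUSG00000024381) had 539.9 ± 15.7 CPM (counts scaled to the size of the library, SD, n = 4) in WT mice of its cohort, 56.2 ± 5.10 in *Bin1* mck-/- mice on placebo and 40.9 ± 6.16 on tamoxifen. Counts per gene do not show the S619L point mutation. All 12 markers of muscle fibres were detected in every group. *Xist* was above 10 CPM in all 12 mice of the *Bin1* cohort, in 2 of 4 mice of each other group of the *Dnm2* cohort and in 4 of 4 tamoxifen *Dnm2* S619L/+ mice, so that sex was unequal in the tamoxifen comparisons with this last group. The labels give the samples as numbered replicates, and p-values measure the spread between these samples.

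Promoters of the 3 receptor genes whose level changed most are shown as sequence context, from 250 bases before to 50 bases after the annotated start (RefSeq, build GRCm38.p6, 5′ to 3′ on the strand of the gene). For *Fgfr4*, at chr13:55152568-55152867 on the plus strand, capitals mark an M-CAT element (CATTCC), the motif bound by TEAD factors, which begins 3 bases after the start. For *Fgfr2*, at chr7:130266759-130267058 on the minus strand, capitals mark E-boxes (CANNTG), the motif of basic helix-loop-helix factors. For the first promoter of *Fgfr3*, at chr5:33721474-33721773 on the plus strand, capitals mark GC boxes (GGGCGG), here on the opposite strand as CCGCCC.
Fgfr4: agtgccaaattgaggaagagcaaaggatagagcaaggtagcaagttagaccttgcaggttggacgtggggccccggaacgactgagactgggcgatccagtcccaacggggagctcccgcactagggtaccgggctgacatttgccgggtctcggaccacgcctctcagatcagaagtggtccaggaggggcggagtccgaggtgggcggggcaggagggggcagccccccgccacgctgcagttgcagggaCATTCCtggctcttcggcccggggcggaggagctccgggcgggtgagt
Fgfr2: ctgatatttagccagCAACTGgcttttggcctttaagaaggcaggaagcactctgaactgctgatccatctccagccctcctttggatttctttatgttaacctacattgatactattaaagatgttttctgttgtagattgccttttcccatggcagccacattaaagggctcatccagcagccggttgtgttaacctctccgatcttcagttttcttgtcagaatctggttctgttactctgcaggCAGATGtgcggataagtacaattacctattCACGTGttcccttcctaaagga
Fgfr3: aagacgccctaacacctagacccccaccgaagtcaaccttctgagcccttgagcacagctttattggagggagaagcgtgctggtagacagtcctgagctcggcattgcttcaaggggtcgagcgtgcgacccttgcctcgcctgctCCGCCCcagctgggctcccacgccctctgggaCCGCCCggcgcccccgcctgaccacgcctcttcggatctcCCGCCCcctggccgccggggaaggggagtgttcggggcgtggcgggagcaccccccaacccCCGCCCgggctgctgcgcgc
Searched on both strands, M-CAT was found in 14.7% of 32851 promoters of this length, the E-box in 72.3% and the GC box in 35.7%. The capitals leave out the other motifs: the window of *Fgfr4* also held 4 GC boxes and 2 E-boxes, and that of *Fgfr3* 1 E-box. Among the members, M-CAT was also in the promoter of *Klb*. The windows of *Fgfr4* and *Fgfr3* held 65.3% and 69.7% G and C, and that of *Fgfr2* 43.7%, without a GC box. The full palindromic estrogen response element, searched because tamoxifen binds the estrogen receptor, was in 0.0700% of promoters and in none of the 8 members with an entry. Its half-site AGGTCA was in 16.3% of promoters and, among these members, in that of *Fgf6* only.

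**Figure D1:**
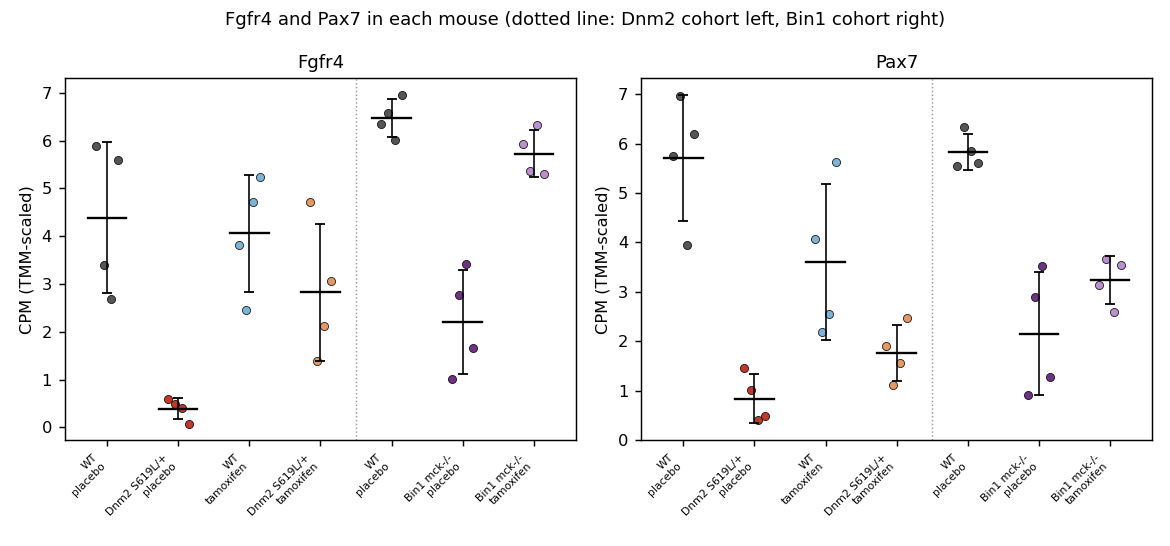
Expression of *Fgfr4* and of *Pax7*, the marker of satellite cells, in CPM on a linear axis, with 1 point per mouse, a line at the mean and bars of 1 SD for the 7 groups. *Fgfr4* lay between 0.0792 and 0.586 CPM in placebo *Dnm2* S619L/+ mice and between 1.40 and 4.72 CPM on tamoxifen.

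*Fgfr4* (ENSMUSG00000005320) encodes a receptor of satellite cells and regenerating muscle. Placebo WT mice of the *Dnm2* cohort had 5.88, 3.40, 2.69 and 5.61 CPM of *Fgfr4* (mean 4.39, SD 1.59), and placebo *Dnm2* S619L/+ mice 0.586, 0.480, 0.407 and 0.0792 CPM (mean 0.388, SD 0.219). These means rest on 985 and 47 reads. All mutant mice lay below all WT mice, and the log2 fold change of −3.47 (SE 0.48) is the value for which the set was drawn up. On tamoxifen, *Dnm2* S619L/+ mice had 4.72, 1.40, 2.13 and 3.06 CPM (mean 2.82, SD 1.44), each above every mutant mouse on placebo, with a log2 fold change of 2.82 (SE 0.48) that was not tested because the placebo mice are those of the rule. WT mice on tamoxifen had 3.82, 2.46, 4.71 and 5.25 CPM (mean 4.06, SD 1.22), and tamoxifen and placebo WT mice overlapped (log2 fold change −0.14, and 0.12 without TMM factors). Between *Dnm2* S619L/+ and WT mice that both received tamoxifen, which share no mouse with the rule, the log2 fold change was −0.51 (SE 0.40, edgeR adjusted p = 0.533) and the groups overlapped.

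The *Bin1* cohort gives *Fgfr4* in mice outside the comparison named in the rule, although earlier results of both cohorts were known when the set was drawn up. WT mice had 6.35, 6.58, 6.02 and 6.96 CPM (mean 6.48, SD 0.397), and *Bin1* mck-/- mice on placebo 1.01, 2.77, 3.42 and 1.65 CPM (mean 2.21, SD 1.09). *Fgfr4* was lower in all 4 *Bin1* mck-/- mice, and the log2 fold change was −1.55 (SE 0.28), at an edgeR adjusted p of 0.0136. It was the only one of 8 members tested that was called in this comparison, in which 2.61% of 14841 genes were called, and 2 members had an unadjusted p under 0.05. On tamoxifen, *Bin1* mck-/- mice had 5.93, 5.37, 6.32 and 5.30 CPM (mean 5.73, SD 0.486), each above every mutant mouse on placebo. This rise, 1.38 on the log2 scale (SE 0.28, edgeR adjusted p = 0.0190), was again the only call among 8 members, against 3.13% of all genes, of which 48.5% rose (21.0% without TMM factors). Tamoxifen *Bin1* mck-/- and placebo WT mice overlapped in *Fgfr4*, with a log2 fold change of −0.18 (95% interval −0.71 to 0.35, edgeR adjusted p = 0.814). Against WT mice, tamoxifen *Bin1* mck-/- mice had 0 of 8 members called by edgeR (2 at an unadjusted p under 0.05) and 0 by DESeq2, where edgeR called 0.849% of all genes.

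The *Bin1* cohort calls of *Fgfr4* stood close to the threshold. The lower level in *Bin1* mck-/- mice was called in 9 of 12 fits that left out 1 mouse, with log2 fold changes from −1.85 to −1.32. It was not called without *Bin1* mck-/- placebo mouse 4 (edgeR adjusted p = 0.0542), WT mouse 6 (0.0549) or WT mouse 8 (0.0535). The rise on tamoxifen was called in 10 of 12 such fits (1.14 to 1.67) and not without placebo mouse 4 (edgeR adjusted p = 0.0580) or tamoxifen mouse 3 (0.0534). With only both *Bin1* mck-/- groups fitted, the edgeR adjusted p of the rise was 0.0805.

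Genes were ranked by the likeness of their pattern to that of *Fgfr4*, as a description. Over the 28 mice, with log2 CPM centred within each cohort, the first was *Pax7*, the transcription factor gene that defines satellite cells (Pearson's r = 0.865). It was followed by *Frg2f1* (r = 0.813), *Otoa* (0.803), *Calcr* (0.776), which encodes the calcitonin receptor of quiescent satellite cells, and *Ctnnbl1* (0.770). These values follow the differences between groups and include the placebo mice in which the fall of *Fgfr4* chose the set, so that they support nothing about *Fgfr4* there. Within the 12 mice of the *Bin1* cohort, r was 0.890 for *Pax7*, 0.732 for *Frg2f1*, 0.804 for *Otoa*, 0.871 for *Calcr* and 0.716 for *Ctnnbl1*. Among the other members, over the 28 mice, *Fgf2* had r = 0.441, *Fgfr1* −0.253 and *Fgfrl1* −0.553.

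*Pax7* was at 5.74, 6.96, 3.95 and 6.19 CPM in placebo WT mice of the *Dnm2* cohort and at 1.47, 1.01, 0.407 and 0.475 CPM in placebo *Dnm2* S619L/+ mice. On tamoxifen, *Dnm2* S619L/+ mice had 1.90, 1.12, 1.56 and 2.47 CPM of *Pax7* (mean 1.76, SD 0.570). Their mean stayed below that of tamoxifen WT mice (3.60, SD 1.57), and this difference did not pass the test (log2 fold change −1.03, edgeR adjusted p = 0.161). In the *Bin1* cohort *Pax7* had a mean of 5.83 CPM (SD 0.361) in WT, 2.15 (SD 1.25) in *Bin1* mck-/- placebo and 3.24 (SD 0.483) in *Bin1* mck-/- tamoxifen mice. Its log2 fold change between placebo *Bin1* mck-/- and WT mice was −1.44 (edgeR adjusted p = 0.0345, called in 5 of 12 fits without 1 mouse, with an adjusted p of up to 0.114), and that under tamoxifen was 0.60 (edgeR adjusted p = 0.318). In tamoxifen *Bin1* mck-/- mice the mean of *Pax7* thus lay between those of both placebo groups, and that of *Fgfr4* lay closer to the WT mean.

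The 15 markers of satellite cells and myoblasts had 1 call higher and 2 lower in placebo *Bin1* mck-/- against WT mice (2.61% of all genes called). Their summed CPM, which the more abundant of them carry, ranged from 301 to 382.8 in WT, 358.8 to 448.2 in placebo *Bin1* mck-/- and 274.9 to 338.3 in tamoxifen *Bin1* mck-/- mice, without overlap between the latter groups. The median log2 fold change of the 15 was −0.20 in placebo *Bin1* mck-/- against WT mice (0.01 over all genes) and 0.20 on tamoxifen. In placebo *Bin1* mck-/- mice, *Pax7* and *Calcr* were lower (*Calcr*: edgeR adjusted p = 0.0186, called in 8 of 12 fits without 1 mouse) and *Myog*, the gene of the differentiation factor myogenin, was higher (2.27, edgeR adjusted p = 0.0135, called in 10 of 12). The other 12 did not pass the test. *Calcr* was at 0 in 3 placebo *Bin1* mck-/- mice and at 0.0966 CPM in mouse 2, and at 0.392, 0.910, 0.970 and 0.548 CPM on tamoxifen. This rise was called (edgeR adjusted p = 0.00900), but not with a replicate block fitted to both *Bin1* mck-/- groups only (0.0586). No fold is given over a group near 0. In the *Dnm2* cohort the summed level of this list had medians of 271 CPM in placebo WT, 341.8 in placebo *Dnm2* S619L/+, 332.8 in tamoxifen WT and 328.7 in tamoxifen *Dnm2* S619L/+ mice. Between *Dnm2* S619L/+ and WT mice on tamoxifen 1 of 15 was called higher and 2 lower (2.7% of all genes called). *Myog* was higher (log2 fold change 2.74 to 3.07 over the settings), called in 16 of 16 fits without 1 mouse. *Calcr* (−2.41 to −2.18) and *Chodl* (−1.92 to −1.57) were lower, called in 13 and 5 of 16. In bulk muscle, fewer cells of a type and less RNA per cell cannot be told apart.

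**Figure D2:**
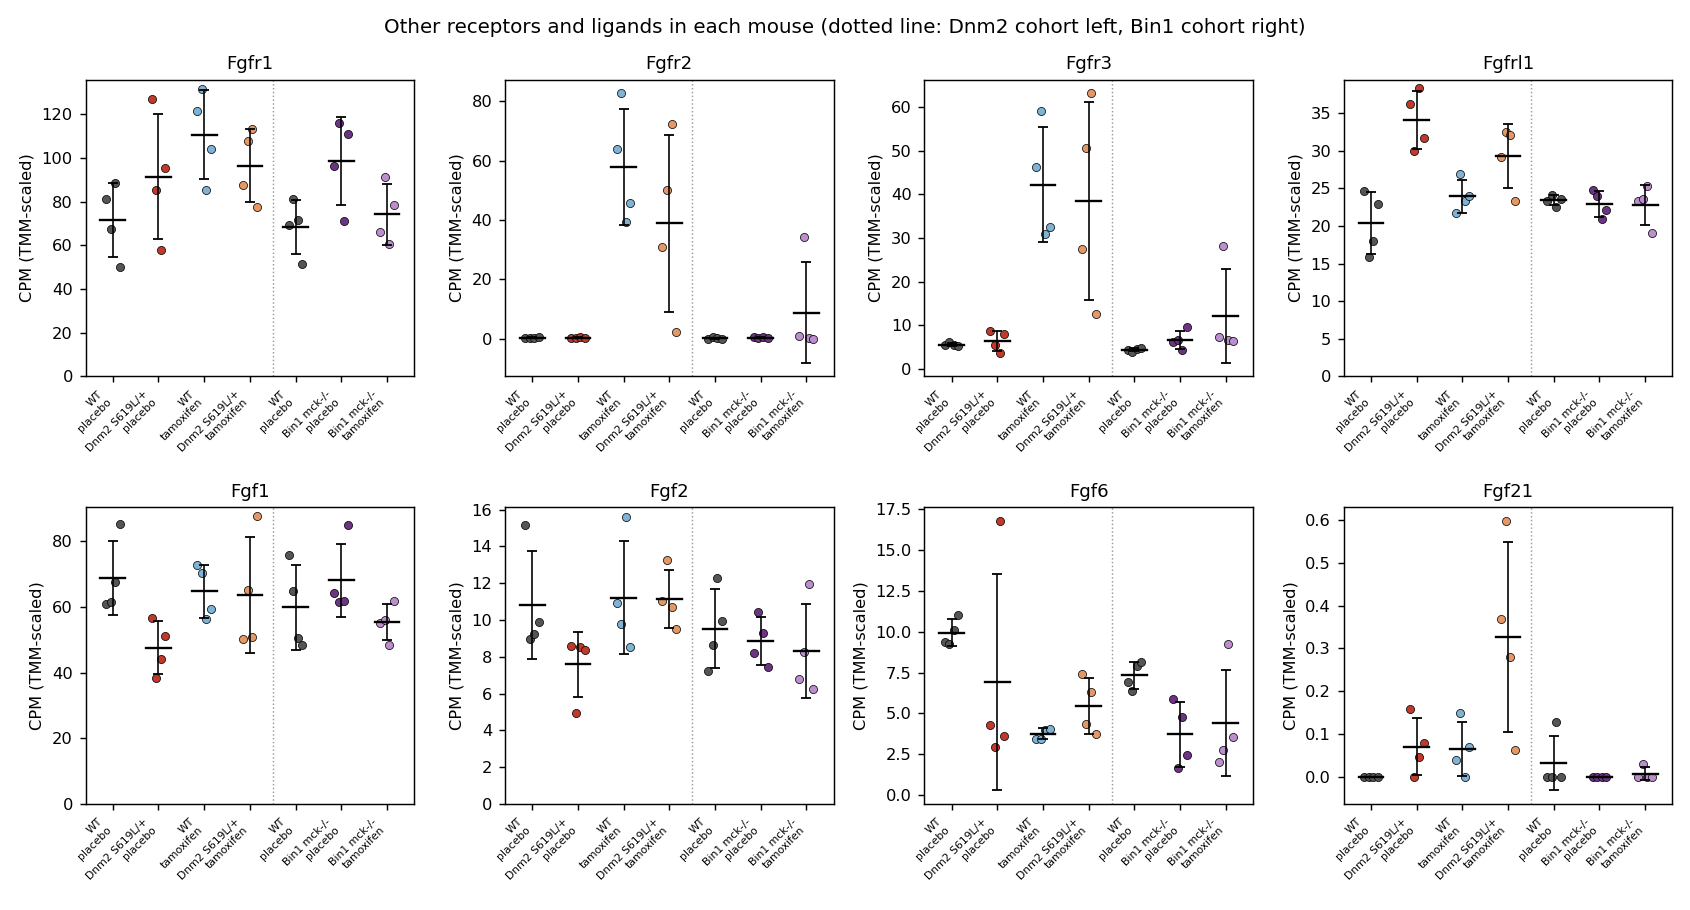
CPM of *Fgfr1*, *Fgfr2*, *Fgfr3*, *Fgfrl1*, *Fgf1*, *Fgf2*, *Fgf6* and *Fgf21* in the 7 groups, with 1 point per mouse, a line at the mean and bars of 1 SD. *Fgfr2* lay below 1 CPM in all placebo mice and between 39.5 and 82.7 CPM in tamoxifen WT mice.

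*Fgfr2* (ENSMUSG00000030849) and *Fgfr3* (ENSMUSG00000054252) were the members that rose most on tamoxifen in the *Dnm2* cohort. In placebo mice *Fgfr2* was near its detection limit, at 0.284, 0.311, 0.0791 and 0.469 CPM in WT and at 0.316, 0.192, 0.498 and 0.198 CPM in *Dnm2* S619L/+ mice. Tamoxifen WT mice had 63.8, 82.7, 39.5 and 45.8 CPM of *Fgfr2* (mean 57.9, SD 19.5). All 4 lay above all placebo mice, which had 1 to 28 reads of *Fgfr2*, and the rise was 7.49 on the log2 scale (SE 0.85, edgeR adjusted p = 1.77e-04). Tamoxifen *Dnm2* S619L/+ mice had 30.8, 50.2, 72.3 and 2.16 CPM, so that mouse 4 lay far below the other three and still above every placebo mouse. The log2 fold change in *Dnm2* S619L/+ mice was 6.99 (SE 0.87, edgeR adjusted p = 8.57e-04). *Fgfr2* passed the filter on low counts through the tamoxifen groups, in which it was high, so that a difference was to be found for any such gene.

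*Fgfr3* moved in the same mice from a higher starting level. It was at 5.40, 6.0, 5.53 and 5.16 CPM in placebo WT and at 46.3, 59.1, 31.0 and 32.5 CPM in tamoxifen WT mice, a rise by 2.94 on the log2 scale (SE 0.42, edgeR adjusted p = 3.51e-04). In *Dnm2* S619L/+ mice it was at 8.61, 5.52, 3.49 and 7.92 CPM on placebo and at 27.5, 50.7, 63.2 and 12.4 CPM on tamoxifen, a rise by 2.57 on the log2 scale (SE 0.41, edgeR adjusted p = 0.00339). In each genotype the placebo and tamoxifen mice did not overlap. All 16 fits that left out 1 mouse kept both genes called in both genotypes (edgeR adjusted p of at most 0.0159), as did a term for sex. For *Fgfr2* these fits add no support, as it passed the filter on low counts through the tamoxifen groups. With only both *Dnm2* S619L/+ groups fitted, the rises of *Fgfr2* (7.04) and *Fgfr3* (2.63) were of the same size and were not called (edgeR adjusted p = 0.0511 and 0.0695). The difference of the rise between genotypes did not pass the test for either gene, with wide intervals. For *Fgfr2* it was −0.50 (95% interval −2.97 to 1.97, edgeR adjusted p = 0.914) and for *Fgfr3* −0.36 (−1.45 to 0.73, edgeR adjusted p = 0.842).

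In the *Bin1* cohort the rise of both genes was limited to 1 mouse. Tamoxifen *Bin1* mck-/- mice had 0.915, 34.2, 0.116 and 0 CPM of *Fgfr2* and 7.19, 28.2, 6.60 and 6.40 CPM of *Fgfr3*. Mouse 2 was the high one for both genes. *Fgfr2* and *Fgfr3* were not called between tamoxifen and placebo *Bin1* mck-/- mice (log2 fold changes of 4.68 and 0.88, edgeR adjusted p = 0.201 and 0.297). Without mouse 2 the log2 fold changes were −0.04 and 0.03 (edgeR adjusted p = 0.987 and 0.947). All 4 tamoxifen *Bin1* mck-/- mice lay above the WT mice in *Fgfr3* (3.90 to 4.73 CPM in WT), at a log2 fold change of 1.48 that did not pass (edgeR adjusted p = 0.178).

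**Figure D3:**
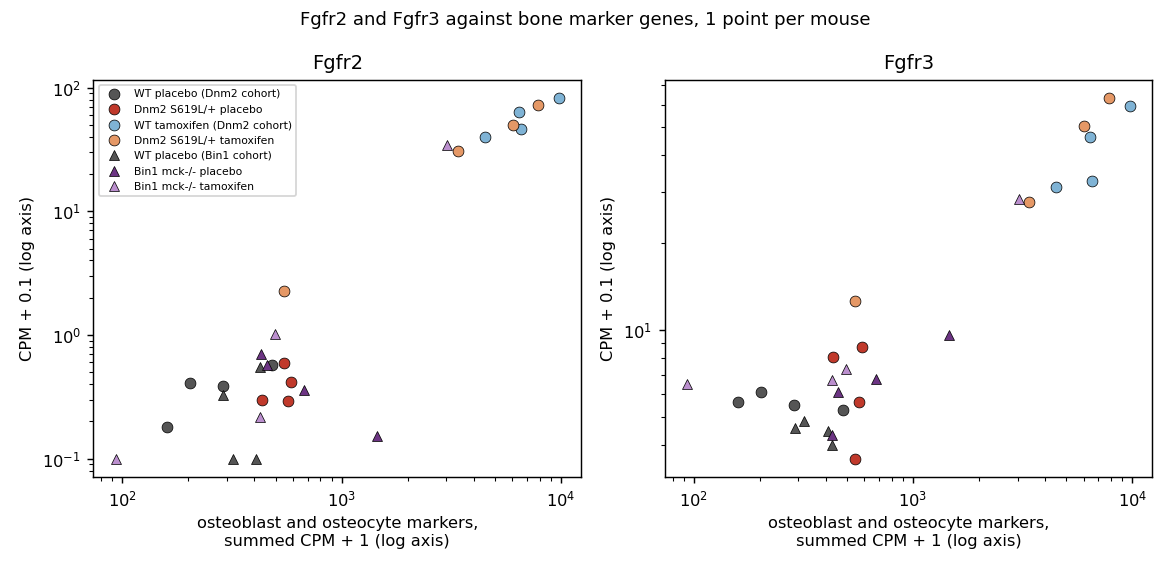
*Fgfr2* and *Fgfr3* (CPM + 0.1) against the summed CPM + 1 of 12 osteoblast and osteocyte markers in the 28 mice, on log axes, with circles for the *Dnm2* cohort and triangles for the *Bin1* cohort. *Bin1* mck-/- tamoxifen mouse 2, with 3030 CPM of the markers, had 34.2 CPM of *Fgfr2* and 28.2 CPM of *Fgfr3*.

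The levels of *Fgfr2* and *Fgfr3* moved with those of bone markers, though not of bone markers alone. The summed CPM of 12 osteoblast and osteocyte markers was 158.4 to 478.7 in placebo WT and 4489 to 9793 in tamoxifen WT mice of the *Dnm2* cohort. Tamoxifen *Dnm2* S619L/+ mice had 3390, 6036, 7836 and 543.2 CPM of these markers, and tamoxifen *Bin1* mck-/- mice 495.6, 3030, 424.6 and 92.14 CPM. The mice low or high in *Fgfr2* (*Dnm2* S619L/+ mouse 4 and *Bin1* mck-/- mouse 2) were also those low or high in the markers. The 8 mice highest in *Fgfr2* were also the 8 highest in *Fgfr3* and in the markers, from 3030 CPM of the markers upward, while the next mouse had 1456 CPM. The mice thus formed separate clusters, and no correlation over all of them is given. Of the 10 markers tested, 9 rose on tamoxifen in WT and 9 in *Dnm2* S619L/+ mice, with median log2 fold changes of 5.18 and 5.27. Of all genes 27.7% and 8.27% were called in these comparisons. As for *Fgfr2*, a rise was to be found for any marker that passed the filter on low counts through the tamoxifen groups. In *Bin1* mck-/- mice the median of the 6 markers tested was 0.27. The markers *Bglap2* and *Mepe* were at 0 in all placebo *Dnm2* S619L/+ mice and all WT mice of the *Bin1* cohort. In placebo *Bin1* mck-/- mice *Bglap2*, *Ibsp*, *Sost* and *Mepe* were at 0 while the sum reached 1456 CPM, so that other genes of the list carried it. Summed fibroblast markers had the same low mouse in tamoxifen *Dnm2* S619L/+ mice (4336, 7097, 8165 and 1726 CPM).

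Markers of other connective tissues were also higher in tamoxifen WT mice, with fewer calls in tamoxifen *Dnm2* S619L/+ mice. Tamoxifen *Dnm2* S619L/+ mouse 4, the lowest of its group in bone markers, was also the lowest in cartilage (10.4 CPM), tendon (119.1) and fibroblast markers (1726). In WT mice 6 of 7 tendon, 4 of 7 cartilage and 5 of 9 fibroblast markers rose on tamoxifen (27.7% of all genes called). Their median log2 fold changes were 3.09, 3.56 and 1.14. As for the bone markers, a rise was to be found for any of them that passed the filter on low counts through the tamoxifen groups. Tamoxifen *Dnm2* S619L/+ mice had rises in 3 of 7 cartilage and 2 of 9 fibroblast markers (medians 1.28 and 0.14, 8.27% of all genes called). The median of the 7 tendon markers was 0.33. The summed tendon markers ranged from 47.96 to 269.1 CPM in placebo WT and 742.2 to 1713 in tamoxifen WT mice, but from 264.8 to 516.5 in placebo and 119.1 to 878.7 in tamoxifen *Dnm2* S619L/+ mice. The summed fibroblast markers had medians of 1032 and 7495 CPM in placebo and tamoxifen WT mice and of 1661 and 5717 in placebo and tamoxifen *Dnm2* S619L/+ mice. Macrophage and leukocyte markers also rose on tamoxifen in WT mice (5 of 6 called, median 1.56, against 27.7% of all genes). In *Dnm2* S619L/+ mice 0 of 6 were called (median 0.13, against 8.27%). The part of these tissues and cells in the rise of *Fgfr2* and *Fgfr3* was not tested.

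**Figure D4:**
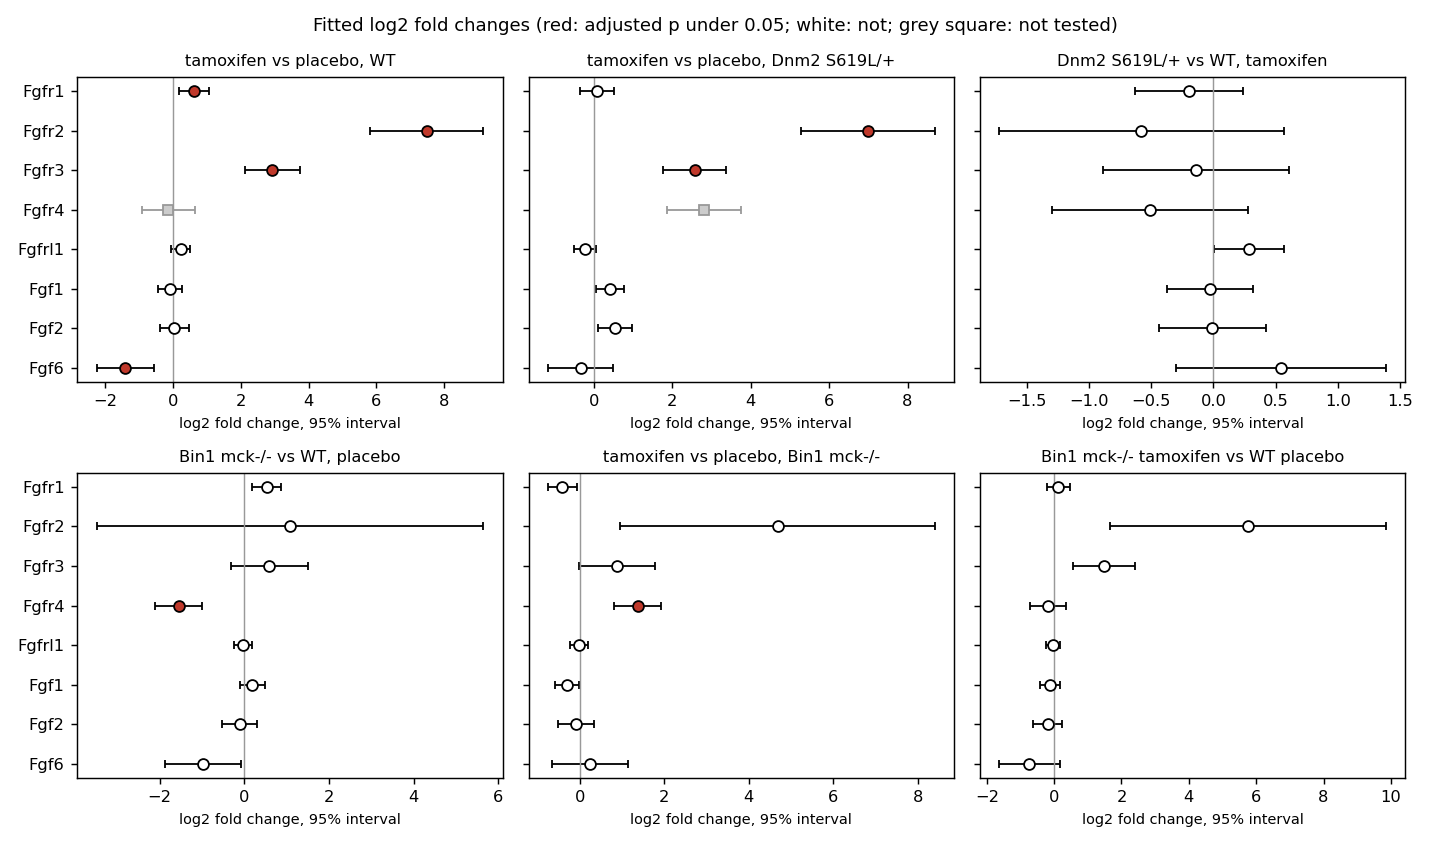
Log2 fold changes of the 8 members that passed the filter on low counts, in 6 comparisons, with 95% intervals (the scale differs between panels). Red points passed the edgeR threshold (adjusted p under 0.05), white points did not and grey squares were not tested. *Fgfr2* has the largest rises, 7.49 in WT and 6.99 in *Dnm2* S619L/+ mice on tamoxifen.

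*Fgfr1* (ENSMUSG00000031565) encodes the receptor with the highest level per exonic length among the kinase receptors in placebo WT muscle. Placebo WT mice had 81.3, 67.3, 88.4 and 50.1 CPM of *Fgfr1* and tamoxifen WT mice 121, 132, 85.4 and 104 CPM, with an overlap between 85.4 and 88.4. The log2 fold change of 0.63 (SE 0.22) was just past the threshold (edgeR adjusted p = 0.0481). It was called in 5 of 16 fits without 1 mouse, namely those without placebo WT mouse 3, tamoxifen WT mouse 3, placebo *Dnm2* S619L/+ mouse 1 or 3 or tamoxifen *Dnm2* S619L/+ mouse 4, and the edgeR adjusted p of the other 11 reached 0.140. The call was also lost with RLE normalization, without a filter on low counts and with the replicate block. In *Dnm2* S619L/+ mice *Fgfr1* was at 127, 85.2, 57.7 and 95.3 CPM on placebo and at 87.6, 108, 113 and 77.4 CPM on tamoxifen (log2 fold change 0.08, edgeR adjusted p = 0.868). Placebo *Bin1* mck-/- mice had 96.3, 116, 70.9 and 111 CPM and WT mice 69.1, 81.4, 71.6 and 51.6 CPM, a log2 fold change of 0.53 that did not pass (edgeR adjusted p = 0.110) and that was 0.65 and called without *Bin1* mck-/- placebo mouse 3 (0.0345). On tamoxifen it was −0.41 in *Bin1* mck-/- mice (edgeR adjusted p = 0.197).

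*Fgfrl1* (ENSMUSG00000008090), the receptor gene without a kinase domain, was higher in placebo *Dnm2* S619L/+ mice, at 36.3, 30.0, 38.3 and 31.7 CPM against 24.7, 15.9, 17.9 and 22.9 CPM in WT mice. The groups did not overlap and the log2 fold change was 0.74 (SE 0.14), given without a test. On tamoxifen, *Dnm2* S619L/+ mice had 29.1, 32.4, 32.2 and 23.3 CPM and WT mice 21.7, 26.9, 23.3 and 24.0 CPM. This difference of 0.29 (95% interval 0.01 to 0.57) did not pass the test (edgeR adjusted p = 0.303). Without TMM factors *Fgfrl1* was called under tamoxifen in WT mice (0.50, edgeR adjusted p = 0.0466), where the value with TMM was 0.23 (edgeR adjusted p = 0.246). In the *Bin1* cohort the means were 23.4 CPM in WT, 23.0 in placebo and 22.8 in tamoxifen *Bin1* mck-/- mice, with SDs from 0.663 to 2.66.

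*Fgf6* (ENSMUSG00000000183), the muscle FGF gene, fell on tamoxifen in WT mice. It was at 9.37, 9.22, 10.1 and 11 CPM on placebo and at 3.46, 3.45, 4.0 and 4.07 CPM on tamoxifen, and the log2 fold change was −1.41 (SE 0.43; edgeR adjusted p = 0.0246). The groups lay far apart and the mice of each were close together. The call was lost without tamoxifen WT mouse 1 (edgeR adjusted p = 0.0624) or mouse 2 (0.0683), and without TMM factors the log2 fold change was −1.13 (0.0559). The call was also lost without a filter on low counts. The summed CPM of the 12 muscle fibre markers was lower in the same tamoxifen WT mice, at 109581 to 123940 against 139664 to 170380 on placebo. Of these markers 1 of 12 was called lower (27.7% of all genes called), with a median log2 fold change of −0.41. The part of the fibre markers in the fall of *Fgf6* was not tested. Placebo *Dnm2* S619L/+ mice had 4.28, 2.93, 16.8 and 3.60 CPM, so that mouse 3 lay above all WT mice and the other three below them (log2 fold change −0.53, and −1.45 without mouse 3, not tested). On tamoxifen *Dnm2* S619L/+ mice had 7.39, 4.34, 6.34 and 3.73 CPM (log2 fold change against placebo −0.33, edgeR adjusted p = 0.668). The difference of the tamoxifen effect between genotypes, 1.08 (edgeR adjusted p = 0.466), became 2.00 and was called without placebo *Dnm2* S619L/+ mouse 3 (0.00334).

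In the *Bin1* cohort *Fgf6* was at 6.91, 6.40, 7.90 and 8.17 CPM in WT and at 5.89, 1.67, 4.81 and 2.48 CPM in placebo *Bin1* mck-/- mice. The groups did not overlap, and the log2 fold change of −0.98 (SE 0.46) did not pass the test (edgeR adjusted p = 0.254). Tamoxifen *Bin1* mck-/- mice had 2.05, 2.79, 9.23 and 3.58 CPM, with mouse 3 above all WT mice. Their log2 fold change against placebo was 0.25 (edgeR adjusted p = 0.799).

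*Fgf1* (ENSMUSG00000036585) and *Fgf2* (ENSMUSG00000037225) encode ligands that leave the cell without a classical signal peptide. In placebo *Dnm2* S619L/+ mice *Fgf1* was at 56.8, 38.3, 44.1 and 51.1 CPM and in WT mice at 61.0, 61.5, 67.6 and 85.3 CPM. *Fgf2* was at 8.59, 4.94, 8.51 and 8.35 CPM in these mutant mice and at 15.2, 8.97, 9.25 and 9.90 CPM in WT mice. Both genes had non-overlapping groups and small falls, with log2 fold changes of −0.53 and −0.52 and no test. Without TMM factors both were −0.25, and without placebo WT mouse 1 that of *Fgf2* was −0.30. On tamoxifen *Dnm2* S619L/+ mice had 50.2, 65.3, 50.8 and 87.9 CPM of *Fgf1* and 11, 13.3, 10.7 and 9.51 CPM of *Fgf2*. Their log2 fold changes against placebo, 0.42 (SE 0.18) and 0.55 (SE 0.22), had unadjusted edgeR p-values of 0.0326 and 0.0258 and did not pass after adjustment (0.154 and 0.137). Neither was called in WT mice on tamoxifen (−0.09 and 0.04) or in the *Bin1* cohort, where *Fgf1* had means of 59.9, 68.1 and 55.4 CPM and *Fgf2* of 9.53, 8.85 and 8.31 CPM in WT, placebo and tamoxifen *Bin1* mck-/- mice. *Fgf2* shares 640 of its 6782 exonic bases with *Nudt6* on the opposite strand and 255 with *Gm43439* on its own, *Fgfr3* shares 998 of 7158 with *G630022F23Rik*, *Fgfr2* 314 of 10328 with *Ctbp2* and *Fgfr1* 164 of 9875 with *Gm16159*. The strand setting of the counting is not given in the sources used here.

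*Fgf21* (ENSMUSG00000030827) and *Klb* (ENSMUSG00000029195) did not pass the filter on low counts in either cohort and were not tested. *Fgf21* had no read in the 4 placebo WT mice of the *Dnm2* cohort, which allows up to 0.0157 CPM over the group (3 reads, counting error only). It had 7, 0, 1 and 2 reads in placebo *Dnm2* S619L/+, 2, 5, 0 and 2 in tamoxifen WT and 12, 15, 7 and 2 in tamoxifen *Dnm2* S619L/+ mice. The last group, with 0.327 CPM (SD 0.222), was the only one in which every mouse had a read. In the *Bin1* cohort 1 WT mouse had 4 reads, 1 tamoxifen *Bin1* mck-/- mouse had 1 read and the other 10 mice had none. *Klb* had at most 10 reads in a mouse, with 8, 12, 8 and 10 reads per group in the *Dnm2* cohort (in the order placebo WT, placebo *Dnm2* S619L/+, tamoxifen WT, tamoxifen *Dnm2* S619L/+) and 2, 12 and 0 in WT, placebo and tamoxifen *Bin1* mck-/- mice.

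Levels were compared between genes as mean CPM per kb of exons. In placebo WT mice of the *Dnm2* cohort *Fgf1* led with 12.6, followed by *Fgfrl1* (7.32), *Fgfr1* (7.27), *Fgf6* (2.13), *Fgf2* (1.60), *Fgfr4* (1.24), *Fgfr3* (0.772) and *Fgfr2* (0.0277). The neighbours *Fgfrl1* and *Fgfr1* differed by less than their spread between mice, as did *Fgf2* and *Fgfr4*. Placebo *Dnm2* S619L/+ mice had *Fgfrl1* first (12.3), then *Fgfr1* (9.25) and *Fgf1* (8.71), with *Fgfr4* at 0.110. In tamoxifen WT mice *Fgfr3* (5.90) and *Fgfr2* (5.61) lay above *Fgfr4* (1.15), and they did so in tamoxifen *Dnm2* S619L/+ mice (5.37, 3.76 and 0.798). In the *Bin1* cohort *Fgfr4* was at 1.83 in WT, 0.624 in placebo and 1.62 in tamoxifen *Bin1* mck-/- mice.

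The members called were compared with all genes. On tamoxifen, 3 of 7 members with a test rose and 1 fell in WT mice, where 27.7% of 15439 genes were called, 57.1% of them higher (92.0% without TMM factors). In *Dnm2* S619L/+ mice 2 of 7 rose, where 8.27% of all genes were called, 63.1% of them higher (74.4% without TMM factors). Both counts include *Fgfr2*, which passed the filter through the tamoxifen groups, so that its call says nothing about the members as a set. The count in WT mice also includes *Fgfr1*, called in 5 of 16 fits without 1 mouse. Between *Dnm2* S619L/+ and WT mice on tamoxifen edgeR called 0 of 8 members, none had an unadjusted p under 0.05, and DESeq2 called 0, against 2.7% of all genes by edgeR. For the difference of the tamoxifen effect between genotypes edgeR called 0 of 7 members and DESeq2 0, against 0.259% of all genes by edgeR. Here 1 member had an unadjusted p under 0.05, *Fgfrl1*, with a difference of −0.45 (SE 0.20, edgeR adjusted p = 0.349). The median log2 fold change of the 7 members with a test, that is without *Fgfr4*, was 0.23 in WT and 0.42 in *Dnm2* S619L/+ mice on tamoxifen, with −0.04 and −0.03 over all genes.

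The other genes of the pathway were taken from 6 lists. Of 24 tested co-receptors and binding partners, 15 rose and 1 fell on tamoxifen in WT mice and 12 rose in *Dnm2* S619L/+ mice, with medians of 0.88 and 0.44 (27.7% and 8.27% of all genes called). *Sdc2*, a syndecan that carries heparan sulfate, rose in WT mice (log2 fold change 1.77, edgeR adjusted p = 2.50e-04), and so did *Sulf2*, which removes sulfate groups from heparan sulfate (2.04, edgeR adjusted p = 3.39e-04). In *Dnm2* S619L/+ mice *Sdc1* rose (2.99, edgeR adjusted p = 0.00703), a call lost with only both groups fitted (0.0778). Each comparison of the *Bin1* cohort had 1 call among 23 genes of this list. Of all genes 2.61% were called in placebo *Bin1* mck-/- against WT mice, 3.13% on tamoxifen and 0.849% in tamoxifen *Bin1* mck-/- against WT mice. The call was *Ncam1* in placebo *Bin1* mck-/- mice (1.98, edgeR adjusted p = 0.0365, called in 4 of 12 fits without 1 mouse, adjusted p up to 0.121). It was *Flrt1* in both comparisons with tamoxifen mice.

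*Flrt1* encodes a transmembrane protein that binds FGF receptors. In *Dnm2* S619L/+ mice it was at 2.14, 0.672, 0.815 and 0.475 CPM on placebo and at 35.5, 21.3, 30.2 and 44.3 CPM on tamoxifen (log2 fold change 4.89, edgeR adjusted p = 9.08e-05). It rose in each of the 3 genotypes, with log2 fold changes of 5.48 in WT (edgeR adjusted p = 2.37e-05) and 6.25 in *Bin1* mck-/- mice (4.58e-04). Unlike *Fgfr2*, *Flrt1* was high in all 4 tamoxifen *Bin1* mck-/- mice, at 36.5, 30.1, 103.9 and 39.2 CPM, and also in tamoxifen *Dnm2* S619L/+ mouse 4. Its calls were kept in every fit that left out 1 mouse.

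*Etv5*, an ETS factor gene that is a known target of FGF signalling, fell on tamoxifen. WT mice had 9.31, 13.8, 14.9 and 12.2 CPM on placebo and 6.27, 4.32, 2.45 and 3.35 CPM on tamoxifen (log2 fold change −1.59, edgeR adjusted p = 0.00229). *Bin1* mck-/- mice had 7.61, 10.4, 11 and 10.3 CPM on placebo and 3.40, 3.91, 4.66 and 5.52 CPM on tamoxifen (−1.17, edgeR adjusted p = 0.00330). In both genotypes the groups did not overlap, and no fit that left out 1 mouse lost the call. *Dnm2* S619L/+ mice had 12.9, 11.1, 4.89 and 7.88 CPM on placebo and 4.11, 3.11, 3.53 and 6.14 CPM on tamoxifen. These groups overlapped between 4.89 and 6.14 CPM, and the log2 fold change was −1.12 (edgeR adjusted p = 0.0416), called in 6 of 16 fits without 1 mouse and at an adjusted p of up to 0.138. Against placebo WT mice *Etv5* was also lower in tamoxifen *Bin1* mck-/- mice (−1.14, edgeR adjusted p = 0.00519), while the WT mice, at 9.08 to 10.4 CPM, lay within the range of placebo *Bin1* mck-/- mice.

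The 14 ERK and ETS target genes had 1 call in each direction on tamoxifen in WT mice (*Fosl1* and *Etv5*), against 27.7% of all genes, 1 lower in *Dnm2* S619L/+ mice (*Etv5*, against 8.27%) and 2 lower in *Bin1* mck-/- mice (*Etv5* and *Etv4*, against 3.13%). *Fosl1* was higher in *Dnm2* S619L/+ than in WT mice on tamoxifen (2.47, edgeR adjusted p = 0.00823), and its tamoxifen effect was lower in *Dnm2* S619L/+ mice (edgeR adjusted p = 0.0470, called in 1 of 16 fits without 1 mouse). Tamoxifen *Bin1* mck-/- against WT mice had *Jun* higher (0.63, edgeR adjusted p = 0.0232) and *Etv5* and *Etv4* lower. In placebo *Bin1* mck-/- mice 3 of the 14 were higher, against 2.61% of all genes. The 3 encode early response factors, *Fosl1* (edgeR adjusted p = 0.0345), *Egr1* (2.39, 0.0443) and *Ier2* (0.92, 0.0365), and fits without 1 mouse lost these calls in 6, 8 and 7 of 12 cases. *Fosl1* was near 0 in placebo WT mice (means of 0.0299 and 0.0419 CPM in the *Dnm2* and *Bin1* cohorts), so that no fold over them is given. It passed the filter on low counts through other groups, so that its calls against placebo WT mice say nothing about the list. Of the 12 feedback inhibitors 3 rose and 2 fell on tamoxifen in WT mice (27.7% of all genes), led by *Spred3* (0.97, edgeR adjusted p = 0.00585), and *Spry1* was lower in tamoxifen *Bin1* mck-/- than in WT mice (−0.65, edgeR adjusted p = 0.0478). *Dusp5*, an ERK phosphatase gene, was higher in placebo *Bin1* mck-/- mice, at 2.28, 5.18, 1.71 and 6.26 CPM against 0.951, 0.452, 0.448 and 0.723 in WT (2.57, edgeR adjusted p = 0.0110). On tamoxifen it was at 1.09, 1.03, 0.737 and 1.06 CPM (−1.97 against placebo, edgeR adjusted p = 0.0199). The first call was lost in 2 and the second in 3 of 12 fits without 1 mouse, and the second with only both groups fitted (edgeR adjusted p = 0.0556). Markers of macrophages and leukocytes were higher in the same placebo *Bin1* mck-/- mice (4 of 6 called, against 2.61% of all genes). Their summed level was 112 to 220.5 CPM against 34.38 to 54.81 in WT, and their part in these changes was not tested.

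The remaining lists are read against the 27.7% of all genes called on tamoxifen in WT mice. Of 6 tested other FGF ligands 1 rose and 1 fell in WT mice on tamoxifen, with *Fgf7*, a ligand of connective tissue that acts on epithelia through FGFR2, at a log2 fold change of 1.57 (edgeR adjusted p = 0.00195). Of 24 signal transducers 4 rose and 4 fell in WT mice on tamoxifen, among them the adaptor gene *Shc1* (0.84, edgeR adjusted p = 7.97e-04) and the kinase gene *Rps6ka1* (−1.17, 0.00691). Of 11 genes of the integrated stress response, which includes known regulators of *Fgf21*, 2 rose and 2 fell in WT mice on tamoxifen, and *Psat1*, an enzyme gene of serine synthesis, was higher in placebo *Bin1* mck-/- mice (1.75, edgeR adjusted p = 0.0136, lost in 3 of 12 fits without 1 mouse).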

How the data were processed

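The authors deposited raw read counts per Ensembl gene, whole numbers without normalization, for strand-specific polyA libraries of TA muscle. The submitters' processing notes name bcl2fastq 2.20.0.422, cutadapt 1.10, Bowtie 1.2.2, STAR 2.5.3, HTSeq 0.6.1p1 and mm39. The *Bin1* cohort table has 4 lines that name no gene (22.0% to 30.8% of counts), left out here. Symbols and exon lengths came from GENCODE M21 (GRCm38), which named 52083 identifiers.

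Counts were tested per cohort with edgeR 4.0.16 (R 4.3.3; TMM, filterByExpr, robust quasi-likelihood, prior count 0.125), all groups in 1 fit, with Benjamini-Hochberg adjustment over all genes (15439 and 14841) and a threshold of 0.05. Intervals are 1.96 SE, narrower than the quasi-likelihood test implies, so that an interval can exclude 0 at an unadjusted p over 0.05. CPM use TMM-scaled library sizes, a scale chosen after plain library totals had also been seen. The tests were first run on simulated data. Alternatives were DESeq2 1.42.0, RLE, no filter, more than 10 reads in 90% of mice, only the groups compared, a replicate block, each mouse left out and, added later, a sex term (*Xist* above 10 CPM) and library sizes without TMM factors. Named are the members, at most 3 called genes per pathway list and comparison, and the 5 genes most like *Fgfr4* (log2 CPM, prior count 2). Marker genes are named besides. Members and lists were chosen with earlier results of these data known. No pair of mice was one library (chi-square per gene at least 15.6).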

Additional observations from a re-analysis of the deposited data

Results flagged for a closer look

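In 11 of 67 groups of a member gene 1 mouse stood apart from the other 3, by a gap past Dixon's 95% critical value for 4 samples. Chance flags about 1 in 20 groups of normally distributed values. This rate does not hold for *Fgf21* and *Klb*, where a group with reads in only 1 mouse is always flagged. In tamoxifen *Bin1* mck-/- mice this was mouse 2, with 34.2 CPM of *Fgfr2* and 28.2 CPM of *Fgfr3*, the mouse that was also high in osteoblast markers. In placebo mice of the same genotype mouse 4 had 84.9 CPM of *Fgf1*. In the *Dnm2* cohort placebo WT mouse 1 had 15.2 CPM and placebo *Dnm2* S619L/+ mouse 2 had 4.94 CPM of *Fgf2*, and placebo *Dnm2* S619L/+ mouse 3 had 16.8 CPM of *Fgf6* and 0.453 CPM of *Klb*. The others had few reads: *Klb* in tamoxifen WT mouse 3 (0.282 CPM) and WT mouse 8 of the *Bin1* cohort (0.0603), and *Fgf21* in WT mouse 7 (0.128) and tamoxifen *Bin1* mck-/- mouse 2 (0.0303). With plain library totals 9 groups were flagged, without those of *Fgf2*.

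In 4 pairs of comparisons every mouse of one moved up and every mouse of the other moved down against the mean of its control group. *Fgfrl1* had a log2 fold change of 0.23 on tamoxifen in WT and −0.22 in *Dnm2* S619L/+ mice, and the tested difference of −0.45 did not pass (edgeR adjusted p = 0.349). *Fgfr1* had 0.63 on tamoxifen in WT and −0.41 in *Bin1* mck-/- mice. *Fgf1* had 0.42 on tamoxifen in *Dnm2* S619L/+ and −0.30 in *Bin1* mck-/- mice, and −0.53 in placebo *Dnm2* S619L/+ against 0.19 in placebo *Bin1* mck-/- mice. These last 3 differences lie between cohorts and were not tested. With plain library totals 2 pairs were flagged.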

How the results depend on the processing

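Counts of genes called moved by over 1.5 times under the following settings, and the cause was not tested. Between *Dnm2* S619L/+ and WT mice on tamoxifen 417 genes were called, 919 by DESeq2, 830 without TMM factors and 182 to 623 without 1 mouse. On tamoxifen in WT mice 4273 genes and 4 members were called, 2 members without a filter, and 2769 to 4825 genes and 2 to 4 members without 1 mouse. In *Dnm2* S619L/+ mice 1277 genes and 2 members were called, 814 genes without a filter, 515 with a sex term, 30 genes and 0 members with only the groups compared, 1 member with more than 10 reads in 90% of mice (a filter that *Fgfr2* did not pass), and 368 to 2562 genes without 1 mouse. Between placebo *Bin1* mck-/- and WT mice 388 genes were called, 1140 by DESeq2 (65.8% higher, 76.0% by edgeR), 1458 with only the groups compared, and 18 (without WT mouse 8) to 759 genes and 0 to 2 members without 1 mouse. On tamoxifen in *Bin1* mck-/- mice 464 genes were called, 1169 by DESeq2, 122 genes and 0 members with only the groups compared, and 160 to 1253 genes and 0 to 1 members without 1 mouse. Tamoxifen *Bin1* mck-/- against WT mice gave 126 genes, 519 by DESeq2, 210 without a filter and 42 to 266 without 1 mouse. The genotype difference of the tamoxifen effect gave 40 genes, 322 by DESeq2, 20 with RLE, 16 with more than 10 reads in 90% of mice, 140 with a sex term and 1 to 293 without 1 mouse.

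Replicate numbers gave no clear pairing of the mice (r of same-numbered mice from −0.325 to 0.335). Of 4 mice in a comparison, 0 to 2 were most like the mouse of their own number. In placebo WT and placebo *Dnm2* S619L/+ mice *Xist* was above 10 CPM in the same numbers, 1 and 4. With the replicate block, counts were 843 on tamoxifen in *Dnm2* S619L/+ mice and 10 for the genotype difference. In the *Bin1* cohort the block was fitted to both *Bin1* mck-/- groups only, without the WT mice. It gave 152 genes and 0 members on tamoxifen (*Fgfr4* 1.49, edgeR adjusted p = 0.0779), where the same groups without the block gave 122 genes and 0 members. The rise of *Fgfr1* in WT mice had an edgeR adjusted p of 0.0564 with the block.

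Library sizes without TMM factors moved the median log2 fold change of all genes from −0.04 to 0.24 on tamoxifen in WT mice, from 0.01 to 0.14 in placebo *Bin1* mck-/- mice, from −0.00 to −0.16 on tamoxifen in *Bin1* mck-/- mice and from −0.01 to −0.21 for the genotype difference. Among tested values, signs changed only for those that had not been called, except *Fgf13* on tamoxifen in WT mice (−0.28 with TMM, 0.0051 without). Without TMM factors *Fgf1* became 0.020 between *Dnm2* S619L/+ and WT mice on tamoxifen and 0.20 on tamoxifen in WT mice, and in placebo *Bin1* mck-/- mice *Fgfrl1* became 0.099 and *Fgf2* 0.019. *Fgf2* between *Dnm2* S619L/+ and WT mice on tamoxifen became 0.0025 with DESeq2, 0.0023 with RLE, 0.076 without TMM factors, 0.00023 without a filter, 0.017 with only the groups compared and 0.019 with the replicate block. *Fgfr1* on tamoxifen in *Dnm2* S619L/+ mice became −0.035 with a sex term.

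Leaving out 1 mouse turned the sign of values near 0. Between *Dnm2* S619L/+ and WT mice on tamoxifen the ranges were −0.22 to 0.071 for *Fgf1*, −0.12 to 0.19 for *Fgf2* and −0.49 to 0.16 for *Fgfr3*. On tamoxifen they were −0.15 to 0.032 for *Fgf1* and −0.16 to 0.25 for *Fgf2* in WT, −0.58 to 0.59 for *Fgf6* and −0.088 to 0.28 for *Fgfr1* in *Dnm2* S619L/+, and −0.40 to 0.56 for *Fgf6*, −0.063 to 0.068 for *Fgfrl1*, −0.041 to 5.10 for *Fgfr2* and −0.31 to 0.027 for *Fgf2* in *Bin1* mck-/- mice. In placebo *Bin1* mck-/- against WT mice they were −0.076 to 0.0051 for *Fgfrl1* and −0.23 to 0.037 for *Fgf2*, and in tamoxifen *Bin1* mck-/- against WT mice −0.093 to 0.038 for *Fgfrl1*, −0.0062 to 0.21 for *Fgfr1* and −0.20 to 0.014 for *Fgf1*. Over the settings that kept all mice, 770 further values of members and named genes kept direction and side of the threshold, 64 lost their call and 1 gained it. Depth limits *Fgf21*, *Klb* and *Fgfr2* in placebo mice.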
